A study of Homo sapiens with 12 samples.

Results

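Histone genes were followed in poly(A)-selected RNA from SHEP cells, a human neuroblastoma line, in 4 groups of 3 libraries each. The OHT_Dox libraries came from cells given 4-hydroxytamoxifen (4-OHT) at 200 nM, which activates MYCN fused to the estrogen receptor (MYCN-ER), and doxycycline at 1 µg/ml, which induces a short hairpin RNA (shRNA) against TCEAL1. The OHT libraries had 4-OHT alone, the Dox libraries doxycycline alone, and the Ctrl libraries neither agent. All groups carried both the MYCN-ER construct and the inducible hairpin, so an agent's own effect and that of the protein or hairpin it switches on cannot be told apart. A histone gene was a row of the count table whose symbol begins with one of the histone stems (H1-, H2AC, H2BC, H3C, H4C, H2AZ, H2AX, H2AJ, H2BU, H3-, H4-16 or MACROH2A), with no mention of a pseudogene in its description and with a CPM, the reads of a gene per 1000000 reads of the library, of at least 0.1 in at least 3 libraries. This left 42 of the 28576 genes listed, out of 54 matching symbols, of which 12 were pseudogenes and 0 were below the CPM threshold. Among the 42 were 30 replication-dependent genes (5 for H1, 7 for H2A, 9 for H2B, 5 for H3 and 4 for H4) and 10 variant genes (2 for H1, 5 for H2A and 3 for H3). The remaining 2 rows were H3-2, described as putative, and H2AZ1-DT, a noncoding transcript divergent to H2AZ1. H2AC21, H1-6 and H2AC18 lay just inside the threshold, which each reached in 4 libraries.

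Core histones H2A, H2B, H3 and H4 form the nucleosome, and linker histone H1 binds the DNA that enters and leaves it. Replication-dependent genes lie in clusters, are transcribed mainly in S phase, and their mRNA normally ends in a stem-loop in place of a poly(A) tail. The stem-loop binding protein SLBP and the U7 small nuclear ribonucleoprotein direct that cleavage. Variant genes such as H2AZ1 or H3-3B stand outside the clusters, are expressed through the cell cycle and give ordinary polyadenylated mRNA. Reads of a replication-dependent gene in a poly(A)-selected library therefore do not measure the total amount of that mRNA. Whether they all come from polyadenylated transcripts was not tested.

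The hairpin's target was lower in every doxycycline library. TCEAL1 had 1.73 to 2.58 CPM in OHT_Dox libraries, against 8.23 to 9.75 CPM in OHT libraries, and 2.54 to 2.74 CPM in Dox libraries, against 9.11 to 10.7 CPM in Ctrl libraries. Libraries held 44466458 to 57694970 reads over the listed genes, so that 1 read was worth 0.0173 to 0.0225 CPM. All 6 markers of mesenchymal neuroblastoma cells were present, VIM highest at 2223 to 3083 CPM. The adrenergic markers PHOX2A and DBH stayed below 1 CPM in every library, while HAND2 (47.6 to 64.1 CPM) and GATA3 (7.30 to 10.1 CPM) were present. All 3 listed haematopoietic markers stayed below 1 CPM. Over 16434 genes, a gene's deviation from its mean over the 12 libraries went with its GC content in some libraries. This was strongest in OHT_Dox replicate 3 (Spearman 0.506), Dox replicate 1 (-0.384) and Dox replicate 2 (-0.324). Such deviations hold differences between groups as well as between libraries of a group.

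The histone stem-loop was looked for in the GENCODE 29 transcripts of the human genome (build GRCh38), by its consensus, and was found in 67 of 58676 genes (0.114%). It was found in 16 of the 30 replication-dependent genes and in 1 of the 10 variant genes, H2AX, which is known to give both stem-loop and polyadenylated mRNA. The other 14 replication-dependent genes had no match in their reference transcripts. Their longest coding models had a median of 423 bases, against 1344 in the 16 with a match. Such short models may end before the element, so these genes are not shown to lack it. H2BC12 was one of them, and its only model, of 381 bases, is too short to reach far beyond the coding part. The sequences below are shown so that the element can be compared between genes of both classes; the stem-loop is in capitals, written as DNA and 5′ to 3′, with 5 bases on each side.
H2AC11: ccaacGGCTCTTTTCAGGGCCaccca
H2AC6: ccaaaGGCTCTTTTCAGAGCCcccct
H2BC21: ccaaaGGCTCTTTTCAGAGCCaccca
H2BC5: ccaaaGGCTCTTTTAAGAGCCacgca
H3C14: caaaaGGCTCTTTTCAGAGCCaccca
H4C8: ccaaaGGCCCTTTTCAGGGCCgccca
H2AX: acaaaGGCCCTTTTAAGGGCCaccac
The stem-loop of H2AC6 and H2BC21 was shared by 10 genes, that of H4C8 by 3 H4 genes, and that of H2BC5 by H2BC4 as well. The one of H2AC11 and the one of H2AX occurred in no other histone gene studied here.

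For 7 replication-dependent genes the reference held a transcript that ran on more than 50 bases past the stem-loop and had a poly(A) signal among its last 50 bases. These were H2AC11, whose transcript went on for 1761 bases, H2AC6, H2BC18, H2BC21, H3C14, H3C15 and H4C8. In all, 13 replication-dependent genes had a transcript with a poly(A) signal near its end, and the median of their mean levels was 4.33 CPM. The signal was sought without regard to the stem-loop. The 13 include H4C11, whose only model ends 6 bases past the stem-loop, so that its signal does not lie beyond the stem-loop. The 17 without such a signal had a median of 0.548 CPM, yet they included H2BC12, the most abundant of the class at 74.4 CPM, and H1-2 at 26.1 CPM. These levels were not divided by length, and the longest coding models had a median of 1654 bases in the 13 genes, against 488 in the 17. A short model such as that of H2BC12 cannot show a signal further on, so the 17 are not shown to lack one. All 10 variant genes had such a signal.

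RefSeq promoter windows (build GRCh38.p14, from 250 bases before to 50 bases after the start) were matched for 26 replication-dependent and 8 variant genes. The octamer ATTTGCAT, a motif of H2B promoters bound by OCT1, was found on either strand in 42.3% of the replication-dependent promoters, in 5 of 7 H2A and 5 of 8 H2B promoters, against 2.19% of 27305 promoters of all genes. CCAAT was found in 92.3% of the replication-dependent promoters, against 39.7% of all promoters, and TATAAA in 73.1%, against 14.0%. Of the 8 variant promoters, 1 held the octamer, 6 held CCAAT and 4 held TATAAA. The windows of the 2 genes that mark this set, H2BC12 on the minus strand at chr6:27146809-27147108 and H2AC11 on the plus strand at chr6:27132793-27133092, are shown because they carry all 3 motifs, which are in capitals on whichever strand they were found; where a match to TATAAA and one to its reverse complement overlap they form a single run of capitals.
H2BC12: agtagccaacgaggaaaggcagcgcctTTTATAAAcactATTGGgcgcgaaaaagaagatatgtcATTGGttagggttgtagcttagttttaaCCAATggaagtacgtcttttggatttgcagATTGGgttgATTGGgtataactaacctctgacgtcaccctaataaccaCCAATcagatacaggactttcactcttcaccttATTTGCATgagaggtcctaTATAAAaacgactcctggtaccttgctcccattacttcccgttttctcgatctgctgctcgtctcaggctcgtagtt
H2AC11: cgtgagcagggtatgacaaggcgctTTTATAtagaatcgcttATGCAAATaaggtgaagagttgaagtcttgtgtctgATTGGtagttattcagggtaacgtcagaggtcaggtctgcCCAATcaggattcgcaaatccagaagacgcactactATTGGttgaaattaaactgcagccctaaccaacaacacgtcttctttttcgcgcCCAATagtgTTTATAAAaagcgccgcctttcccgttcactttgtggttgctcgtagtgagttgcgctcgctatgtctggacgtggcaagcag
A motif match describes letters in the window and does not show that a factor binds there.

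Variant genes made up most histone reads in this poly(A) RNA. H2AZ1, which encodes the H2A.Z variant found at promoters, averaged 469 CPM over the 12 libraries. H3-3B, one of the genes for the replacement histone H3.3, averaged 338 CPM, H2AX, whose phosphorylation marks DNA breaks, 231 CPM, MACROH2A1 229 CPM and H2AZ2 134 CPM. At the low end were H3-5 with 6.27 CPM and MACROH2A2 with 3.01 CPM. The replication-dependent genes ran from 74.4 CPM for H2BC12, through H2AC6 with 26.2, H1-2 with 26.1, H2BC5 with 16.6 and H2BC11 with 10.1 CPM, down to 0.0715 CPM for H2AC21. Of the 30, 18 averaged at least 1 CPM and 12 averaged less. Divided by the length of the longest coding reference transcript, H2AZ1 (979 bases) still led with 479 CPM per kilobase. It was followed by H2BC12 with 195, H2AX with 143 and H3-3B with 125 CPM per kilobase. H2AZ1 also has a reference transcript of 1880 bases, and the only model of H2BC12 has 381 bases. The order therefore rests on the models chosen.

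**Figure D1:**
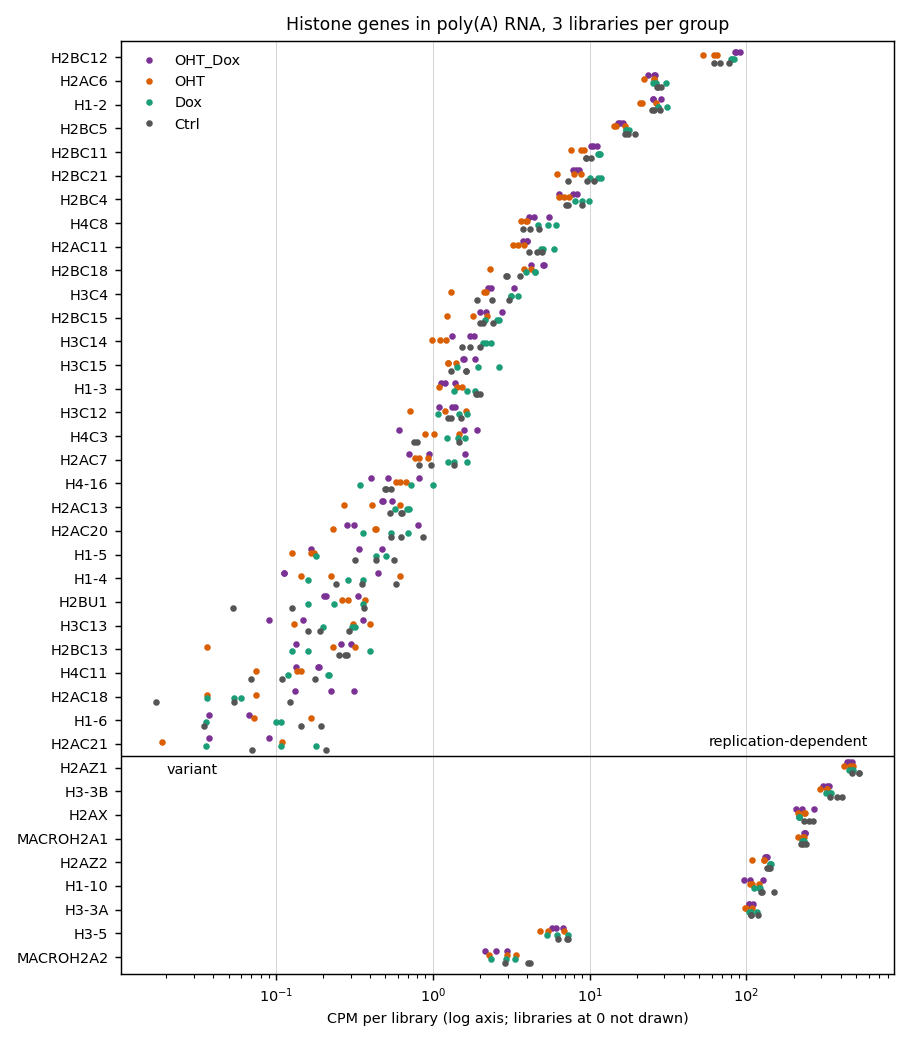
CPM of the 30 replication-dependent and 9 of the 10 variant histone genes in every library, on a log axis, with genes ordered by mean within each class and points coloured by group (3 libraries each); libraries at 0 are not drawn. H2BC12 at a mean of 74.4 CPM stood apart at the top of the replication-dependent genes, and H2AZ1 at 469 CPM at the top of the variants.

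Several of these levels may share reads with near-identical genes. H3C14 and H3C15 have identical transcripts of 1656 bases in the reference, and every 50-base word of H2AC18 and H3C4 occurs in another gene as well. For H2BC12 this share was 74.1%, for H2AC7 98.0%, for H4C11 81.2% and for H3C13 80.4%. How the authors' counting split reads among such copies is not given in the sources used here, so the assignment of reads to these genes is uncertain.

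The summed level of the replication-dependent genes was higher in doxycycline libraries than in their counterparts. It was 210, 209 and 213 CPM in OHT_Dox libraries, against 157, 174 and 179 CPM in OHT libraries. It was 223, 222 and 216 CPM in Dox libraries, against 187, 194 and 209 CPM in Ctrl libraries. In both pairs the doxycycline libraries did not overlap those without it. The summed variant level overlapped in the first pair, at 1600, 1624 and 1686 CPM in OHT_Dox libraries, against 1498, 1676 and 1636 CPM in OHT libraries. In the second pair it was 1681, 1679 and 1661 CPM in Dox libraries, against 1707, 1877 and 1840 CPM in Ctrl libraries, with every Dox library below every Ctrl library.

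The replication-dependent genes' share of both sums showed the 2 classes together. That share averaged 11.4% ± 0.194 in OHT_Dox libraries, against 9.60% ± 0.227 in OHT libraries (SD, n = 3 each), and 11.6% ± 0.105 in Dox libraries, against 9.81% ± 0.416 in Ctrl libraries. All 6 doxycycline libraries lay between 11.2% and 11.7%, above all 6 others, which lay between 9.36% and 10.2%. With 4-OHT the share hardly differed, at 11.4% in OHT_Dox libraries against 11.6% in Dox libraries, and 9.60% in OHT libraries against 9.81% in Ctrl libraries. No test was made of these sums, because the members were chosen with results of these data known.

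H2BC12 alone was 40.4% to 42.5% of the replication-dependent sum in OHT_Dox libraries, against 33.3% to 36.4% in OHT libraries. Without it the sum averaged 124 ± 1.56 CPM in OHT_Dox libraries, against 110 ± 4.66 CPM in OHT libraries, and 139 ± 2.56 CPM in Dox libraries, against 127 ± 3.15 CPM in Ctrl libraries (SD, n = 3 each). In CPM the doxycycline libraries of each pair stayed above the others without H2BC12. With TMM scaling Dox replicate 3 would again fall below Ctrl replicate 3. Among families, the H2B genes summed to 137 ± 2.10 CPM in OHT_Dox libraries, against 104 ± 8.45 CPM in OHT libraries. The H3 genes summed to 7.41 ± 0.664 CPM in OHT_Dox libraries, against 5.75 ± 0.679 CPM in OHT libraries, which is more than either SD. The H2A genes summed to 31.4 ± 1.70 CPM in OHT_Dox libraries, against 29.8 ± 2.42 CPM in OHT libraries, a difference within the spread of the libraries. The H4 genes summed to 6.80 ± 1.25 CPM in OHT_Dox libraries, against 5.72 ± 0.415 CPM in OHT libraries. For the H1 genes the sums were 28.2 ± 1.40 CPM in OHT_Dox libraries, against 24.9 ± 3.05 CPM in OHT libraries. In the H4 and H1 families the libraries overlapped.

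**Figure D2:**
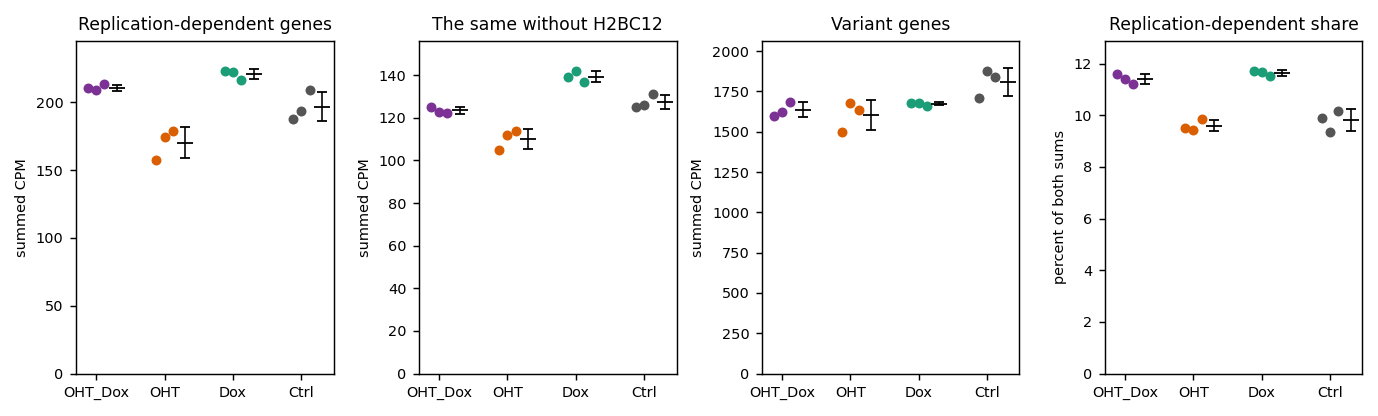
Summed CPM of the replication-dependent genes, of the same without H2BC12 and of the variant genes, and the replication-dependent percentage of both sums, per library (points) with the group mean and SD (bars; n = 3 per group). The percentage lay between 11.2% and 11.7% in the 6 doxycycline libraries and between 9.36% and 10.2% in the 6 others.

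Each gene was tested with limma on log2(CPM + 0.5) over all 24339 genes at the CPM threshold, and a call is a Benjamini-Hochberg adjusted p below 0.05; log2 changes are on that scale, which understates changes of genes near or below 1 CPM. The libraries are of bulk RNA, so fewer cells that express a gene and less RNA per cell cannot be told apart. With MYCN-ER activation alone (OHT against Ctrl), 5 of the 42 histone genes fell and 0 rose, while 15.3% of all genes tested were called, 9.22% as higher and 6.08% as lower. Among the 5 histone genes were the variants H3-3B and H1-10 and the replication-dependent genes H3C14 and H1-5. In either direction 5 of 42 is near the share of all genes, and among lower calls alone it lies above theirs; this was not tested. With the hairpin induced (OHT_Dox against Dox), 3 of the 42 fell, H2BC21 and H2AC11 among them, where 18.9% of all genes were called, 8.48% as higher and 10.5% as lower. A single higher call, of H2AC18, is not counted as a result, because that gene reached the CPM threshold only through the 3 OHT_Dox libraries and Ctrl replicate 2.

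H3-3B had 295, 328 and 326 CPM in OHT libraries, against 342, 404 and 380 CPM in Ctrl libraries, with no overlap and a log2 change of -0.24 ± 0.06 (limma adjusted p = 0.0103). The call was lost without Ctrl replicate 2 or without OHT replicate 1, the highest adjusted p of the 21 alternatives being 0.0723. With 308, 336 and 324 CPM in OHT_Dox libraries, against 345, 342 and 321 CPM in Dox libraries, the groups overlapped and the change was -0.06 ± 0.06 (adjusted p = 0.617). The difference between these changes was not called (0.19 ± 0.09, limma adjusted p = 0.380). H1-10, a linker histone outside the clusters, had 106, 119 and 108 CPM in OHT libraries, against 126, 125 and 149 CPM in Ctrl libraries. Its log2 change of -0.26 ± 0.09 had a limma adjusted p of 0.0449, and the call was lost under 10 of 21 alternatives, among them edgeR and the removal of Ctrl replicate 3, OHT replicates 1 or 3, Dox replicates 2 or 3 or OHT_Dox replicate 1. With 105, 97.1 and 128 CPM in OHT_Dox libraries, against 123, 111 and 120 CPM in Dox libraries, the groups overlapped and H1-10 was not called (-0.11 ± 0.09, limma adjusted p = 0.434), but with the length and GC trend removed it was called as lower there (-0.29, adjusted p = 0.00332).

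Among the replication-dependent genes, H3C14, which encodes an H3.2 histone, had 0.997, 1.11 and 1.22 CPM in OHT libraries, against 1.73, 2.0 and 1.54 CPM in Ctrl libraries. The libraries did not overlap, and the log2 change was -0.49 ± 0.16 (limma adjusted p = 0.0382). The call was lost under 8 of 21 alternatives, including without any single one of the OHT libraries, of Ctrl replicates 1 and 2 or of Dox replicate 2. Because H3C15 has an identical transcript in the reference used here, the 2 were also summed. This gave 2.41, 2.36 and 2.48 CPM in OHT libraries, against 3.36, 3.63 and 2.86 CPM in Ctrl libraries. The pair summed to 3.19, 3.39 and 3.31 CPM in OHT_Dox libraries, against 3.77, 4.82 and 4.02 CPM in Dox libraries, again with no overlap. H1-5, a linker histone of the cluster, had 7, 9 and 9 reads in OHT libraries, against 31, 18 and 25 reads in Ctrl libraries. Its log2 change of -0.51 ± 0.17 (limma adjusted p = 0.0490) ran from -1.46 by edgeR to -0.31 with a pseudocount of 1 and lost its call under 12 of 19 alternatives that gave it a p-value, among them edgeR and the removal of any OHT library, of Ctrl replicates 1 or 3, of Dox replicate 1 or of OHT_Dox replicate 2.

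H2AC11 had 4.02, 4.02 and 3.76 CPM in OHT_Dox libraries, against 5.94, 5.07 and 4.92 CPM in Dox libraries. Its log2 change was -0.39 ± 0.13 (limma adjusted p = 0.0420), and the call was lost under TMM scaling, without a filter, without OHT replicate 3 and without any single OHT_Dox or Dox library. Without doxycycline it had 3.26, 3.83 and 3.51 CPM in OHT libraries, against 4.60, 4.96 and 4.09 CPM in Ctrl libraries, also with no overlap, and its change of -0.32 ± 0.13 did not pass (limma adjusted p = 0.108). H2BC21, an H2B gene outside the chromosome 6 cluster, had 7.81, 8.56 and 8.14 CPM in OHT_Dox libraries, against 11.3, 10.1 and 11.8 CPM in Dox libraries (-0.41 ± 0.14, limma adjusted p = 0.0362). Its call was lost without a filter and without Dox replicate 1, Dox replicate 3 or any single OHT_Dox library. H2AC18 had 12, 7 and 14 reads in OHT_Dox libraries, against 3, 2 and 3 reads in Dox libraries, which is given with no test, since it was among the genes tested only because of the group in which it is high, and every 50-base word of the gene is shared with another.

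**Figure D3:**
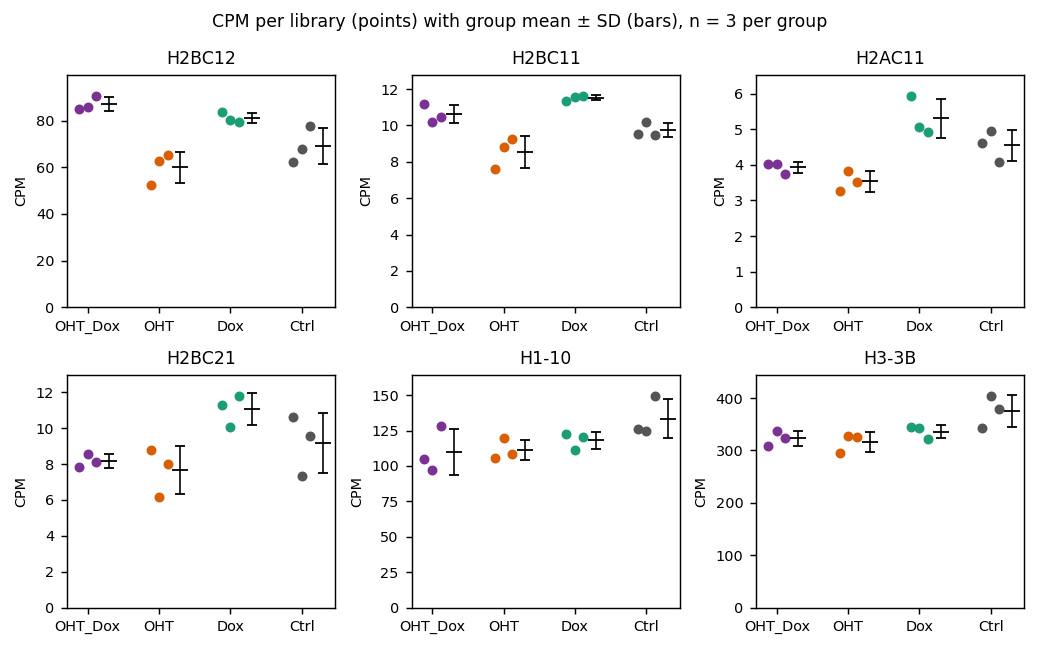
CPM of H2BC12, H2BC11, H2AC11, H2BC21, H1-10 and H3-3B in every library (points) with the group mean and SD (bars; n = 3 per group); each vertical axis starts at 0. H2BC12 was highest with doxycycline, and H2BC21 was at 7.81 to 8.56 CPM in OHT_Dox libraries, against 10.1 to 11.8 CPM in Dox libraries.

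Beyond the calls, most histone genes lay slightly lower with 4-OHT. For OHT against Ctrl, 24 of 30 replication-dependent and 10 of 10 variant genes had a change below 0, with medians of -0.18 and -0.21, while 52.2% of all genes tested were below 0 and their median was -0.01. Without OHT replicate 1 the variant median was -0.13, and 1 of the 10 was above 0. For OHT_Dox against Dox, 26 of 30 replication-dependent and 8 of 10 variant genes were below 0, with medians of -0.12 and -0.05, against 55.6% and -0.03 for all genes. TMM scaling, edgeR and DESeq2 each gave a variant median of -0.02 there. In the first comparison the libraries did not overlap for 12 genes that were lower, against 14.0% of all genes, and for 1 that was higher, against 14.7%. In the second they did not overlap for 8 that were lower, against 19.5%, and for 3 that were higher, H2AC18 among them, against 14.6%. These shares are descriptions of genes that may share reads and are not a test.

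H2BC12, which encodes the H2B of type 1-K, was the single histone gene that passed for TCEAL1 hairpin induction. It had 84.8, 85.9 and 90.7 CPM in OHT_Dox libraries, against 52.5, 62.6 and 65.1 CPM in OHT libraries. The groups did not overlap, and the log2 change was 0.54 ± 0.08 (SE; limma adjusted p = 3.82e-04), a 1.45-fold higher level. This was 1 of 42 histone genes where 1.52% of all genes were called and 0.32% were called as higher and 1.2% as lower. The call held under all 21 alternatives, with changes of 0.45 to 0.60 and a highest adjusted p of 0.00395. The call held with the length and GC trend removed, a step that used the 381-base reference model of H2BC12. OHT_Dox replicate 3, the library whose deviations went most with GC content, also had the highest H2BC12 level. The part of GC content in this call was not tested.

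Without 4-OHT, H2BC12 had 83.7, 80.4 and 79.4 CPM in Dox libraries, against 62.4, 67.7 and 77.6 CPM in Ctrl libraries. In CPM these did not overlap either, but with TMM scaling Dox replicate 3 would fall below Ctrl replicate 3. The log2 change was 0.23 ± 0.08, which did not pass (limma adjusted p = 0.0837). It passed with the length and GC trend removed and without OHT replicate 1. The change was smaller with TMM scaling (0.19, limma adjusted p = 0.190), by edgeR (0.19, adjusted p = 0.207) and by DESeq2 (0.18, adjusted p = 0.173). With 4-OHT the level was not called in either direction, with changes of -0.20 ± 0.08 for OHT against Ctrl (limma adjusted p = 0.0876) and 0.10 ± 0.08 for OHT_Dox against Dox (adjusted p = 0.439). The change for OHT against Ctrl passed without Ctrl replicate 1. The difference between the doxycycline effects with and without 4-OHT was 0.31 ± 0.11 and was not called (limma adjusted p = 0.272).

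For Dox against Ctrl, 0 of 42 histone genes were called by limma, where 5.16% of all genes were, 3.49% as higher and 1.66% as lower. At an unadjusted p below 0.05 there were 8 histone genes, against 21.7% of all genes. edgeR called 1 and DESeq2 called 3, H3-3B and H2AX among them, all as lower. H2AX had 216, 216 and 217 CPM in Dox libraries, against 231, 265 and 249 CPM in Ctrl libraries (-0.20 ± 0.07, limma adjusted p = 0.119). The medians of the 2 classes differed in sign, at 0.15 for replication-dependent and -0.15 for variant genes. Above 0 were 21 of 30 replication-dependent genes (70.0%), against 58.6% of all genes, whose median was 0.04. Of the variant genes, 9 of 10 were below 0. These shares are descriptions and not a test. By family, all 5 H3 genes, all 4 H4 genes and 7 of 9 H2B genes were above 0, but 1 of 5 H1 genes. Of the 18 replication-dependent genes at 1 CPM or more, 15 were above 0, while 61.8% of all genes at that level were. Of the 12 below 1 CPM, 6 were above 0, with a median of 0.00483. Dox libraries did not overlap Ctrl libraries for 5 histone genes that were higher, against 15.9% of all genes, and for 4 that were lower, against 8.62%.

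The same classes were set side by side for OHT_Dox against OHT. Here 24 of 30 replication-dependent genes, H2AC18 among them, were above 0 with a median of 0.12, and 6 of 10 variant genes with a median of 0.04. The variant median was -0.00246 with the length and GC trend removed, -0.00890 without OHT replicate 1, 0.01 without OHT_Dox replicate 3 and 0.06 without OHT replicate 2 or OHT_Dox replicate 2, so it has no settled sign. All genes had a median of 0.02, with 54.9% above 0. At 1 CPM or more, 17 of 18 replication-dependent genes were above 0, against 56.5% of all genes at that level, and H1-3 was the exception (-0.09 ± 0.16, limma adjusted p = 0.875). Below 1 CPM, 7 of 12 replication-dependent genes (58.3%) were above 0, with a median of 0.05, near the share of all genes. OHT_Dox libraries did not overlap OHT libraries for 9 histone genes that were higher, H2AC18 among them, against 9.2% of all genes, and for 1 that was lower, against 7.63%. The largest changes after H2BC12 among genes above 1 CPM were those of H2BC18 (0.44 ± 0.17, limma adjusted p = 0.273) and H3C4 (0.41 ± 0.19, adjusted p = 0.394), which did not pass. H2BC11, an H2B gene of the same cluster, had 11.2, 10.2 and 10.5 CPM in OHT_Dox libraries, against 7.58, 8.82 and 9.24 CPM in OHT libraries, with no overlap and a change of 0.30 ± 0.10 (limma adjusted p = 0.176).

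The difference of the doxycycline effect with and without 4-OHT was called for 0 of 42 histone genes by limma, edgeR and DESeq2. At an unadjusted p below 0.05 there were 4, against 12.9% of all genes, namely H2BC12, H2AX, H3-3B and H2AC18, of which H2AC18 was tested only because of its OHT_Dox libraries. At these group sizes a difference that misses the threshold is not shown to be absent.

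**Figure D4:**
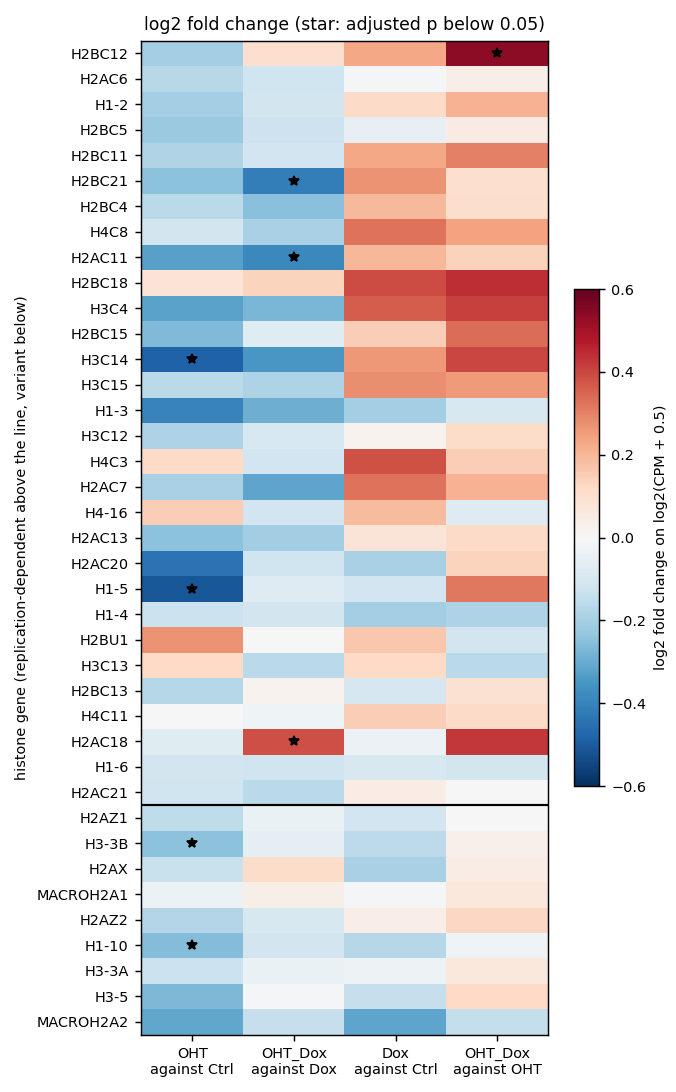
Fitted log2 changes of the 30 replication-dependent (above the line) and 9 of the 10 variant histone genes (below it) in the 4 comparisons, with genes ordered by mean CPM within each class; red is higher and blue lower in the first-named group, and a star marks a limma adjusted p below 0.05. Among the genes drawn, stars stand at 4 for OHT against Ctrl, 3 for OHT_Dox against Dox and 1 for OHT_Dox against OHT; the one at H2AC18 belongs to a gene that reached the CPM threshold through the OHT_Dox libraries.

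Of the other abundant members, H2AC6, H1-2, H2BC5, H2AZ1, H2AZ2 and MACROH2A1 passed in no comparison. For OHT against Ctrl, H2AZ1 (-0.15, limma adjusted p = 0.0889) passed without Ctrl replicate 1 or OHT replicate 2, H2BC5 (-0.22, adjusted p = 0.0933) by DESeq2, and H1-2 (-0.20, adjusted p = 0.141) without OHT replicate 2. H2AC6, an H2A gene with a stem-loop and a polyadenylated transcript in the reference, had 26.1, 23.6 and 25.8 CPM in OHT_Dox libraries, against 22.1, 25.9 and 25.6 CPM in OHT libraries, and 26.4, 30.6 and 25.3 CPM in Dox libraries, against 27.1, 27.0 and 28.4 CPM in Ctrl libraries. Both pairs overlapped. H1-2, a linker histone of the cluster, averaged 26.4 ± 1.66 CPM in OHT_Dox libraries, against 22.9 ± 2.99 CPM in OHT libraries (SD, n = 3 each; log2 change 0.21 ± 0.09, limma adjusted p = 0.359). H2BC5 averaged 15.8 ± 0.580 CPM in OHT_Dox libraries, against 15.3 ± 1.32 CPM in OHT libraries (0.05 ± 0.09, limma adjusted p = 0.888). H2AZ1 averaged 453 ± 14.5 CPM in OHT_Dox libraries, against 454 ± 29.7 CPM in OHT libraries, and its divergent transcript H2AZ1-DT had 89.9 to 93.3 CPM in OHT_Dox libraries, against 86.2 to 96.5 CPM in OHT libraries. MACROH2A1, whose large C-terminal domain sets it apart from other H2A histones, had 235, 234 and 235 CPM in OHT_Dox libraries, against 213, 232 and 228 CPM in OHT libraries (0.07 ± 0.05, limma adjusted p = 0.683). H2AZ2, the second H2A.Z gene, averaged 133 ± 1.69 CPM in OHT_Dox libraries, against 123 ± 12.2 CPM in OHT libraries. For OHT against Ctrl its change of -0.18 ± 0.06 had a limma adjusted p of 0.0538, and it passed under 6 of 21 alternatives, DESeq2 among them.

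Genes that act on histone mRNA and histone supply were followed as 5 lists, described by counts beside the background shares. Of all genes, 15.3% were called for OHT against Ctrl, 18.9% for OHT_Dox against Dox, 5.16% for Dox against Ctrl and 1.52% for OHT_Dox against OHT. Of 38 DNA replication genes, which act when new histones are needed, 17 were called for OHT against Ctrl and 12 for OHT_Dox against Dox, all as lower, and the others did not pass. ORC1, a subunit of the origin recognition complex, had 30.04, 35.3 and 32.6 CPM in OHT_Dox libraries, against 48.0, 49.0 and 50.8 CPM in Dox libraries (log2 change -0.59 ± 0.07, limma adjusted p = 2.87e-06). The licensing factor CDC6 fell in both settings (-0.30 for OHT against Ctrl and -0.33 for OHT_Dox against Dox). With doxycycline the list held 1 call for Dox against Ctrl, TK1 (-0.24), which 9 of 21 alternatives ended, among them the removal of Ctrl replicates 2 or 3, OHT replicate 3, OHT_Dox replicate 1 or any Dox library. The list held 0 calls for OHT_Dox against OHT by limma, edgeR and DESeq2, with 2 at an unadjusted p below 0.05 and a median of -0.01. The part of replication genes in the histone values was not tested.

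Among 18 genes of histone gene transcription, 3 rose and 6 fell for OHT against Ctrl, and 2 rose and 9 fell for OHT_Dox against Dox. CDK2, the kinase that with cyclin E phosphorylates the histone gene coactivator NPAT, had 79.0, 79.4 and 79.3 CPM in OHT_Dox libraries, against 109, 112 and 110 CPM in Dox libraries (-0.47 ± 0.05, limma adjusted p = 5.97e-07). E2F1 fell for OHT against Ctrl (-0.30) and E2F3 rose (0.24). For OHT_Dox against Dox, CCNE2 (-0.56), RB1 (-0.41) and CDKN1A (-0.35) fell. NPAT itself rose for Dox against Ctrl, with 34.2, 35.6 and 36.1 CPM in Dox libraries, against 32.3, 24.4 and 27.1 CPM in Ctrl libraries (0.34 ± 0.10, limma adjusted p = 0.0478). That call was lost under 12 of 21 alternatives, with a lowest change of 0.18. Among them were TMM scaling, edgeR, the length and GC trend removed, and the removal of Ctrl replicates 2 or 3, any Dox library, OHT replicate 3 or OHT_Dox replicate 1. RB1 rose there as well (0.28), a call lost with TMM scaling, by edgeR, with the length and GC trend removed and without Ctrl replicates 2 or 3 or any single Dox library, its lowest change among the alternatives being 0.14. CDC25A was the call of the list for OHT_Dox against OHT (0.30), and it fell for OHT against Ctrl (-0.29).

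In histone pre-mRNA processing, with 29 genes, 4 rose and 1 fell for OHT against Ctrl, and 3 rose and 4 fell for OHT_Dox against Dox. In either direction these counts were near the shares of all genes called, 15.3% and 18.9%. LSM10, a protein of the U7 particle, had 59.9, 56.1 and 63.4 CPM in OHT_Dox libraries, against 46.6, 43.3 and 40.4 CPM in Dox libraries (0.46 ± 0.07, limma adjusted p = 6.26e-05). CASP8AP2, also called FLASH and needed for processing at histone locus bodies, averaged 33.1 ± 2.68 CPM in OHT_Dox libraries, against 47.8 ± 2.5 CPM in Dox libraries (SD, n = 3 each; log2 change -0.53 ± 0.08, limma adjusted p = 7.34e-05). NELFA (0.31 and 0.48) and NELFCD (0.21 and 0.26), subunits of the negative elongation factor, rose, the first value of each being that for OHT against Ctrl and the second that for OHT_Dox against Dox, and the cap-binding subunit NCBP2 rose for OHT against Ctrl (0.21). The OHT against Ctrl calls of NELFA and NELFCD were lost without Ctrl replicate 2 or OHT replicate 3, that of NELFCD also without OHT replicates 1 or 2 or Dox replicate 2 (lowest change 0.13), and LSM10, which rose there by 0.24, lost its call without Ctrl replicate 1 or OHT replicates 1 or 2. With doxycycline limma and edgeR called 0 genes of this list in either setting. DESeq2 called 3 for Dox against Ctrl and 0 for OHT_Dox against OHT, and an unadjusted limma p was below 0.05 for 8 and 1 genes in these comparisons.

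Of the 17 genes of histone mRNA decay, 16 were tested, and LSM6 stood out with doxycycline. LSM6, a subunit of the LSM1-7 ring that binds histone mRNA for decay, had 16.8, 19.2 and 14.3 CPM in OHT_Dox libraries, against 37.2, 37.7 and 36.7 CPM in OHT libraries (-1.14 ± 0.09, limma adjusted p = 9.77e-08). It had 17.5, 18.3 and 15.9 CPM in Dox libraries, against 36.4, 41.2 and 39.1 CPM in Ctrl libraries (-1.15 ± 0.09, limma adjusted p = 1.27e-07). Its calls held under all 21 alternatives, and its part in the histone values was not tested. The decay list had 4 genes that rose for Dox against Ctrl, among them the nucleases ERI1 (0.28) and XRN1 (0.54) and the uridylyl transferase TUT7 (0.48). The calls of ERI1, XRN1 and TUT7 were lost without Ctrl replicate 2, Ctrl replicate 3 or Dox replicate 2. That of ERI1 was also lost with the length and GC trend removed, with 0.14 as its lowest change among the alternatives, and that of XRN1 had 0.33 as its lowest. For OHT_Dox against Dox, ERI1 (-0.28), XRN1 (-0.58), TUT7 (-0.47) and the decapping enzyme DCP2 (-0.44) were among 5 that fell. For OHT against Ctrl ATR rose (0.39) and LSM1 fell (-0.28).

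Among 27 histone chaperones, 8 fell and 1 rose for OHT against Ctrl, and 9 fell and 2 rose for OHT_Dox against Dox. ASF1B, which hands H3 and H4 to assembly factors in dividing cells, had 68.0, 63.9 and 68.8 CPM in OHT_Dox libraries, against 90.2, 88.0 and 87.0 CPM in Dox libraries (-0.40 ± 0.06, limma adjusted p = 4.89e-05). HJURP, the chaperone of the centromeric H3 variant, fell by a like amount (-0.41 in both comparisons), and so did the chromatin assembly subunit CHAF1B (-0.31 for OHT against Ctrl and -0.32 for OHT_Dox against Dox). CABIN1, of the H3.3 deposition complex, rose for OHT against Ctrl (0.43). With doxycycline, DAXX, an H3.3 chaperone, fell for Dox against Ctrl (-0.47), a call lost without Ctrl replicate 3, and SPTY2D1 rose (0.26, at the lowest 0.12), a call lost with TMM scaling, by edgeR, with the length and GC trend removed and without Ctrl replicates 2 or 3, Dox replicates 1 or 2 or OHT_Dox replicate 1. For OHT_Dox against OHT 0 chaperones were called by limma, edgeR and DESeq2, and 2 had an unadjusted p below 0.05.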

How the data were processed

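The authors deposited 1 table of CPM values per gene, in which every column sums to 1000000; the labels name poly(A) selection and a directional library kit. The submitters' processing notes name STAR, featureCounts and hg19 among tools for RNA and chromatin data together; which of them made this table, and its annotation, are not given in the sources used here. Whole reads were recovered from the CPM steps (100.0% of values within 0.01 reads of a whole number). edgeR on those reads called 3738 genes for OHT against Ctrl, 4494 for OHT_Dox against Dox, 1083 for Dox against Ctrl and 455 for OHT_Dox against OHT; limma called 3723, 4609, 1255 and 369.

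The main test was limma 3.58.1 (R 4.3.3; mean trend, 4 group means, 2-sided) on log2(CPM + 0.5), for genes at 0.1 CPM or more in at least 3 libraries, with Benjamini-Hochberg adjustment over all of them. It was tested on simulated data, with log2 changes of 0.5 or 1 in either direction, put only into genes averaging 1 CPM or more. That simulation does not speak for smaller changes or for genes below 1 CPM. Alternatives were pseudocounts of 0.1 and 1, a filter at 0.5 CPM, no filter, TMM scaling, edgeR 4.0.16, DESeq2 1.42.0, a block for the replicate number, a length and GC trend removed, each library left out, and class by stem-loop. Members and lists were chosen with earlier results of these data known. Named genes are H2BC12 and H2AC11, the 5 most abundant of each class, every called member but 1 that is not reported here, which is also left out of the plots of single genes, members near the CPM threshold, and up to 4 called genes with the smallest p per list and comparison; other members named were chosen after their values were seen. The labels do not say that replicates came from separate cultures, so the tests speak only of variation among these libraries, and this may be technical. Comparisons share groups and are not independent.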

Additional observations from a re-analysis of the deposited data

How the results depend on the processing

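For OHT against Ctrl the 5 called histone genes became 3 with a pseudocount of 1, 2 without a filter, 3 by edgeR and 8 with a replicate block. For OHT_Dox against Dox the 4, H2AC18 included, became 2 without a filter. For Dox against Ctrl the 0 became 1 with TMM scaling, 1 by edgeR, 3 by DESeq2, 2 with a replicate block (H2BC12 among them) and 1 with the length and GC trend removed (H2BC12). For OHT_Dox against OHT the 1 became 2 by DESeq2 and 2 with the length and GC trend removed. The cause was not tested. Leaving out 1 library at a time gave 1 to 6 calls for OHT against Ctrl, 1 to 4 for OHT_Dox against Dox, 0 to 2 for Dox against Ctrl, 1 to 1 for OHT_Dox against OHT and 0 to 0 for the difference of effects. The lowest, 1, came without OHT replicate 1 for OHT against Ctrl, and without Dox replicates 1 or 3 or OHT_Dox replicates 1 or 3 for OHT_Dox against Dox. It was 3 without Ctrl replicate 2 or 3, OHT replicate 3 or Dox replicate 2 for OHT against Ctrl, and 2 without OHT replicate 3, Dox replicate 2 or OHT_Dox replicate 2 for OHT_Dox against Dox. For Dox against Ctrl it was 2 without Ctrl replicate 1, and 1 without OHT replicate 1 or OHT_Dox replicate 3. No called change of a named gene changed sign.

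Deviations from the group means correlated at -0.253 to 0.394 over 18 pairs with the same replicate number (median 0.0716; 15 above 0 and 7 above 0.1), against a median of -0.0281 over 36 pairs with other numbers (14 above 0 and 4 above 0.1), and 8 of 12 libraries correlated best with their own number, a hint from the data and not the design. Not every pair passed 0.1 and the labels do not say what a number marks, so the samples were not treated as paired. The replicate block is given here only, with 8, 3, 2, 1 and 0 calls in the 5 comparisons, H2BC12 and H2AZ1 among the 8. Among all genes, the calls for Dox against Ctrl were 850 higher and 405 lower by limma, against 473 and 610 by edgeR; for OHT_Dox against Dox they were 2065 and 2544, against 2337 and 2157. With a class read from the stem-loop, 1, 3, 0, 0 and 0 replication-dependent genes were called. The 3 include H2AC18, whose call is not counted as a result. The stem-loop class leaves out the called genes H2BC12 and H1-5, because no stem-loop was found in their reference models. The depth limits genes such as H2AC18, which had 0 to 14 reads per library.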
